A study of Homo sapiens with 6 samples.

Results

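The genes described here are 47 interferon-stimulated genes, BST2 among them, out of 58735 genes counted in AsPC-1 cells. They were taken by symbol from a list of genes known to respond to interferon, and each of the 47 symbols matched 1 gene of the table. AsPC-1 is an established human pancreatic cancer cell line. The 3 control libraries, called Vector, came from AsPC-1 cells given an empty lentivirus, and the 3 libraries called OE-MMP28 came from AsPC-1 cells given a lentivirus that carries the cDNA of MMP28, a secreted matrix metalloproteinase. By the study's methods both lentiviruses were used to make puromycin-selected stable cells, so that the control cells had also met a virus and the drug, and the labels name no time after infection. The study's methods mention triplicates for the RNA and independent repeats of its cell experiments in general, but do not say whether the 3 libraries of a group came from separate infections or cultures. The p-values therefore measure the spread between these libraries, which may be technical.

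Type I and type III interferons bind their receptors on the cell surface and, through the kinases JAK1 and TYK2, activate transcription factors such as STAT2. STAT2 and IRF9 are parts of the complex ISGF3, which binds the interferon-stimulated response element (ISRE) in promoters. The genes switched on in this way encode proteins that sense foreign RNA, block viral entry, translation or budding, and tag proteins with the ubiquitin-like ISG15. Many epithelial and tumour cells express part of this set with no added interferon. BST2, or tetherin, is a membrane protein that holds budding enveloped virions at the cell surface.

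Shown here are promoters of 6 members, from genes lower or higher in OE-MMP28 and from OAS3, which did not pass the threshold. The promoters were chosen because they hold, or do not hold, a pattern of the ISRE searched here. Each is the RefSeq window from 250 bases before to 50 bases after the transcription start, in build GRCh38.p14, printed 5′ to 3′ on the strand of the gene. Capitals mark matches to the 10-base pattern GAAANNGAAA on either strand, the other strand being read as TTTCNNTTTC.
BST2 (chr19:17405581-17405880, minus strand, lower in OE-MMP28): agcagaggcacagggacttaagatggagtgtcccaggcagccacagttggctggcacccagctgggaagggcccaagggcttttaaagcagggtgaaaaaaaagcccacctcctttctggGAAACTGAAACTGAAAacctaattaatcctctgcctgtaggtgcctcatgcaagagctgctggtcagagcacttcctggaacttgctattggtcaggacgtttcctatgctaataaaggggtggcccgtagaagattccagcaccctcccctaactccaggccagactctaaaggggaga
IFIT1 (chr10:89392373-89392672, plus strand, lower): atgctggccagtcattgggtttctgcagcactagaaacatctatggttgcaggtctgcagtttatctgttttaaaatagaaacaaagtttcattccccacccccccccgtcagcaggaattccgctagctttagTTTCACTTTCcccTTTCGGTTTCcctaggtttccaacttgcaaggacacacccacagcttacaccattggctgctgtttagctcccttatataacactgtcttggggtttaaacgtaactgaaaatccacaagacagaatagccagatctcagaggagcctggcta
OAS1 (chr12:112906712-112907011, plus strand, lower): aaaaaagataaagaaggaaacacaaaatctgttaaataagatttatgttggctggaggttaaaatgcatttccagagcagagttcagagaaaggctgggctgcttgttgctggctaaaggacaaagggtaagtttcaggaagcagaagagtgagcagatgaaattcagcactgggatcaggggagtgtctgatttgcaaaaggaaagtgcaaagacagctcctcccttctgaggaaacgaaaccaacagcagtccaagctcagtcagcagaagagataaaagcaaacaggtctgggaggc
OAS3 (chr12:112938224-112938523, plus strand, not past the threshold): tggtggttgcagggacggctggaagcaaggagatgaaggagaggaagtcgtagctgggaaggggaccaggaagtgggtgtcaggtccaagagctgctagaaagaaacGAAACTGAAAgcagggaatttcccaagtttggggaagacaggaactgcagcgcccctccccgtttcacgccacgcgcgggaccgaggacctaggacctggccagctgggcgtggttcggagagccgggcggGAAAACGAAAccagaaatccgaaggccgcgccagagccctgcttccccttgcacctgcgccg
IFI6 (chr1:27672143-27672442, minus strand, higher): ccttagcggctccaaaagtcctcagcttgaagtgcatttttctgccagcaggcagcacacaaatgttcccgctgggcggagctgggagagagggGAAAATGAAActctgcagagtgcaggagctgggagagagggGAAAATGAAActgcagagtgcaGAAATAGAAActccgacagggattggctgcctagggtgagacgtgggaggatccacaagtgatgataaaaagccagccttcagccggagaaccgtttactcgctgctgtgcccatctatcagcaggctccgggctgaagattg
UBE2L6 (chr11:57567623-57567922, minus strand, higher): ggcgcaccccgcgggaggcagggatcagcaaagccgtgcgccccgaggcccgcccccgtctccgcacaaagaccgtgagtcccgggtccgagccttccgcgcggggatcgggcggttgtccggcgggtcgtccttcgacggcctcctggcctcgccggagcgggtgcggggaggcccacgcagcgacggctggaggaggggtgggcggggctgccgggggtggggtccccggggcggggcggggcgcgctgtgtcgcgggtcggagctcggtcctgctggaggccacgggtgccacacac

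The BST2 promoter held 2 matches, which began 130 and 124 bases before the start and overlapped by 4 bases. IFIT1 held 2, IFI6 held 3 and OAS3 held 2, while neither OAS1 nor UBE2L6 held a match in its window (a further RefSeq window of UBE2L6 held none either). The pattern requires 2 bases between the GAAA stretches. The OAS1 window does hold gaaacgaaa, with 1 base between them, which the search did not count. Promoter windows were found for 37 of the 47 members, with DDX58 matched under its current symbol RIGI. Of these 37, 23 (62.2%) held at least 1 match, against 3.57% of all 35116 promoter windows and 4.38% of the 27305 gene symbols in that reference. The share was 60.0% (3 of 5) for the members higher in OE-MMP28, 62.5% (5 of 8) for those lower and 60.9% (14 of 23) for those not past the threshold. The 9-base pattern TTCNNNGAA, known as the gamma-activated site, was present in 1 of 5, 2 of 8 and 8 of 23 members of these groups. It was present in 7.66% of all promoter windows and for 9.38% of the gene symbols, the count that matches the members. The groups called higher and lower held 5 and 8 members with a window. IFIT2, OASL, GBP2 and IFITM2, also past the threshold, had no window. GAAA stretches 1 base apart also occur, uncounted, in the windows of DDX58 and IFI35. They occur as well, on either strand, in windows of XAF1, TRIM25, CMPK2 and SP110, which did not pass the threshold and held no match. These shares therefore cannot show whether either pattern goes with direction. A match describes letters in a window and does not show that a factor binds there, and a window without a match says nothing of the factor.

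The lentiviral gene was checked first. MMP28 had 226, 352 and 355 reads in the Vector libraries and 591, 628 and 725 in the OE-MMP28 libraries (log2 fold change 0.90, SE 0.19, adjusted p = 0.00226, edgeR). The total count was 13633249 to 16691458 per library, so that 3 reads, the limit that a count of 0 allows, corresponded to 0.180 to 0.220 CPM (counts scaled to the total of the library), for counting error only. Mitochondrial genes took 11.9 to 14.8% of the counts in Vector and 8.80 to 11.9% in OE-MMP28. The keratins and EPCAM of an epithelial line were present at 10301 to 18003 CPM in sum, and 1 of these 5 genes, KRT19, was higher in OE-MMP28. Among 8 leukocyte markers CD3E and MS4A1 were at 0 in all libraries and PTPRC had at most 1 read; the list summed to 295 to 326 CPM in Vector and 189 to 262 in OE-MMP28, nearly all of it LYZ, which was lower (adjusted p = 0.0376, edgeR). The fibroblast list summed to 104 to 126 and 120 to 169 CPM, almost all LUM, and the endothelial list to at most 2.46. PECAM1 had 0 to 4 reads in Vector and 13 to 30 in OE-MMP28 (log2 fold change 2.79, adjusted p = 0.00361, edgeR). VWF had 7, 9 and 19 reads against 12, 9 and 11 (log2 fold change -0.27, adjusted p = 0.735, edgeR), and CDH5 no more than 1 read. The part of these marker shifts in the results was not tested.

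Between Vector and OE-MMP28, the interferon-stimulated genes did not move as a block. Of the 47 members, 44 had enough reads to be tested; 11 were lower and 6 were higher in OE-MMP28 at an adjusted p under 0.05 (edgeR), and 27 did not pass this threshold. Among all 15319 genes tested, 11.6% were lower and 11.7% were higher. In this fit the share of members that fell (25.0%) was above the background and the share that rose (13.6%) was near it. The number that fell was 8 without OE-MMP28 replicate 2 or with the median of genes within 5 Mb as an offset. It was also 8 in limma on log2(FPKM + 1) and on log2(FPKM + 0.1), with FPKM explained below, and 12 without Vector replicate 1. The share over all genes was not taken in these alternative analyses. Of the 11 that fell, 3 are IFIT genes in 1 region, where that median was -0.45. The list was chosen with earlier results of these data known. The median log2 fold change of the 44 members was 0.06, beside 0.01 over all genes tested, and was -0.03 without Vector replicate 1 or OE-MMP28 replicate 1 and -0.02 without Vector replicate 3. On the log2 scale 24 members had a value above 0 and 20 below. BST2 fell most and UBE2L6 rose most. The families of OAS, IFITM and GBP genes each held values of both signs. All 4 IFIT genes had values below 0, of which IFIT5 did not pass the threshold. In bulk RNA, fewer cells that express a gene and less RNA of it per cell cannot be told apart.

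**Figure D1:**
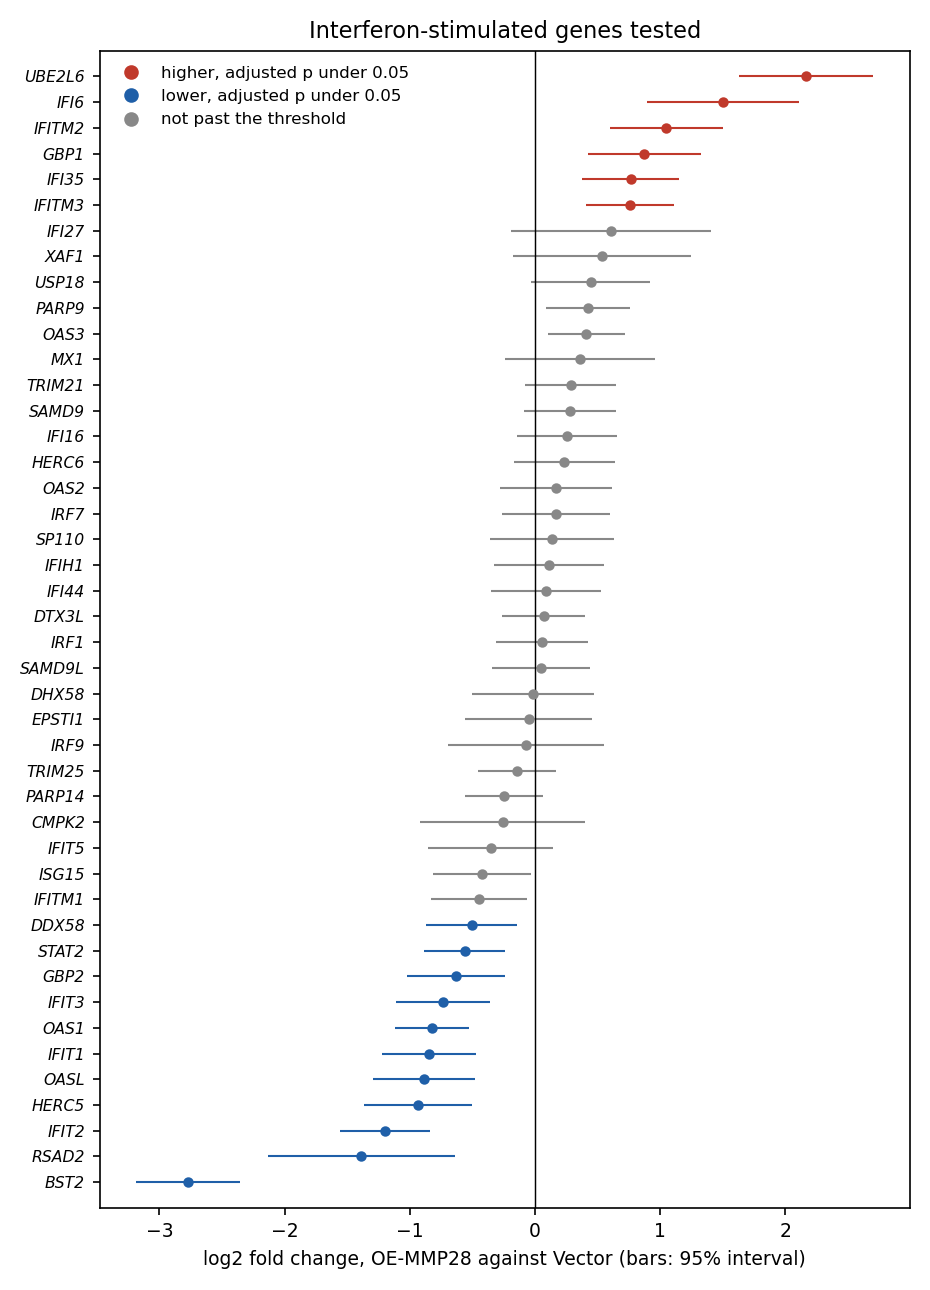
Log2 fold change of OE-MMP28 against Vector (horizontal axis) for the 44 members tested, in order of size, with bars for the 95% confidence interval of the edgeR fit and colour for the call at an adjusted p under 0.05. BST2 stands alone at the low end at -2.77 and UBE2L6 at the high end at 2.17, while most members lie near 0.

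Among the membrane proteins of the list, BST2 fell and 3 others rose. BST2 (ENSG00000130303, GRCh38 chromosome 19, 17402939 to 17405648, minus strand) was at 31.1, 28.6 and 30.3 FPKM (fragments per kilobase of gene, scaled to the depth of the library) in the Vector libraries and at 3.50, 4.28 and 5.26 FPKM in the OE-MMP28 libraries. Every OE-MMP28 library was far below every Vector library. The means were 30.0 ± 1.26 and 4.35 ± 0.879 FPKM (SD, n = 3 each), a 6.90-fold lower level, from 433 to 532 reads in Vector and 62 to 99 in OE-MMP28. In edgeR the log2 fold change was -2.77 (SE 0.20, 95% confidence interval -3.18 to -2.36, adjusted p = 9.52e-09). The exact two-sided permutation test of the FPKM values gave p = 0.1, the smallest it can give with 3 against 3. BST2 was the 4th most abundant of the 47 members by FPKM in Vector and the 22nd in OE-MMP28. Among all genes tested, 57 others fell by at least as much on the log2 scale.

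The genes around BST2 did not share a fall of that size. The median log2 fold change of tested genes within 5 Mb on either side was 0.05. The nearest tested genes were ANO8 at -0.30 (adjusted p = 0.358) and GTPBP3 at 0.26 (adjusted p = 0.337) on one side, and MVB12A at 0.23 (adjusted p = 0.386) on the other. BISPR, a long noncoding RNA gene (chromosome 19, 17405686 to 17419324, plus strand), starts 38 bases from the annotated first base of BST2 on the opposite strand, inside the promoter window printed above. It was lower too, at 1.19 FPKM in Vector and 0.530 FPKM in OE-MMP28 (log2 fold change -1.15, SE 0.33, adjusted p = 0.0168, edgeR). The adjusted p of BISPR was 0.0796 without Vector replicate 3, 0.0574 without OE-MMP28 replicate 1 and 0.0969 without OE-MMP28 replicate 2, and 0.0686 and 0.0748 in limma on log2(FPKM + 1) and log2(FPKM + 0.1). The annotated span of BISPR overlaps that of MVB12A on the same strand, and the library kit does not mark strand.

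The other membrane proteins were IFI6 and the IFITM family. IFI6 (ENSG00000126709, chromosome 1, 27666061 to 27672218, minus strand), a small protein of mitochondrial and endoplasmic reticulum membranes, was at 3.48, 2.22 and 2.12 FPKM in Vector and 5.56, 7.80 and 8.66 FPKM in OE-MMP28. The groups did not overlap (log2 fold change 1.50, SE 0.29, adjusted p = 0.00104). The 4 nearest tested genes, WASF2, AHDC1, FAM76A and STX12, lay between -0.33 and -0.15 on the log2 scale and none passed the threshold. IFITM genes encode short proteins of the plasma and endosomal membrane that hinder the fusion of enveloped viruses. IFITM2 (ENSG00000185201, chromosome 11, 307631 to 315272, plus strand) was at 9.79, 12.9 and 10.4 FPKM in Vector and at 15.7, 21.0 and 31.2 FPKM in OE-MMP28 (log2 fold change 1.05, SE 0.22, adjusted p = 0.00171). IFITM3 (ENSG00000142089, chromosome 11, 319669 to 327537, minus strand) was at 40.1, 47.8 and 44.0 FPKM against 59.3, 71.7 and 89.9 FPKM (log2 fold change 0.76, SE 0.17, adjusted p = 0.00289). Both were higher in every OE-MMP28 library than in any Vector library. IFITM1 (ENSG00000185885) was at 15.2, 18.1 and 21.5 FPKM in Vector and 13.7, 13.1 and 13.2 FPKM in OE-MMP28, also without overlap but in the other direction, and did not pass the threshold (log2 fold change -0.44, adjusted p = 0.0845, or 0.0374 without Vector replicate 1). The exons of IFITM1 and IFITM2 overlap in the annotation over 32.5% of the bases of IFITM1 and 22.7% of those of IFITM2, and 29.8% and 24.2% of their 75-base stretches occur in another gene. The exons of IFITM3 overlap another gene on the opposite strand over 21.3% of their bases, and 8.05% of its 75-base stretches occur in another gene. Reads of this family can therefore be split or dropped. IFI27, the last membrane protein, was below 1 FPKM in every library (log2 fold change 0.61, 95% confidence interval -0.19 to 1.41).

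**Figure D2:**
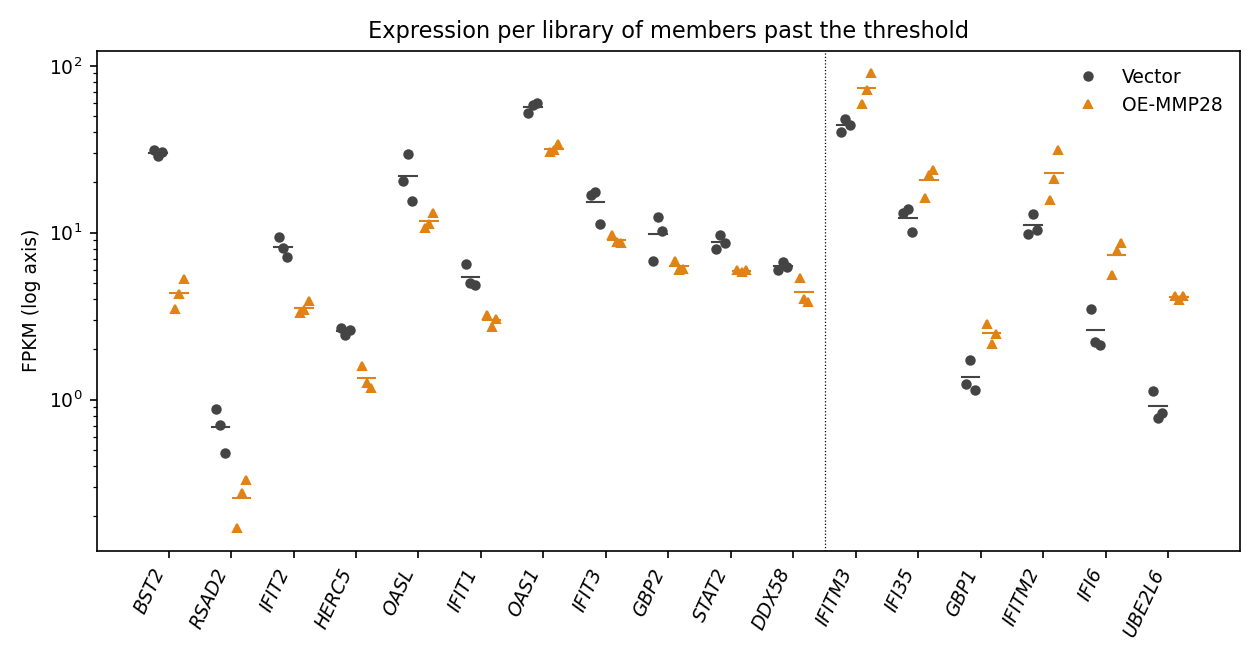
FPKM on a log axis of the 17 members past the threshold, with 1 point per library (3 Vector, 3 OE-MMP28) and a bar at the group mean. BST2 moves from about 30.0 to 4.35 FPKM and UBE2L6 from 0.913 to 4.10 FPKM, and the groups of GBP2 touch at 6.77 FPKM.

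The genes of ISG15 conjugation moved unequally. ISG15 is a ubiquitin-like protein, UBE2L6 the conjugating enzyme (E2) that hands it on, HERC5 the main human ligase (E3), and USP18 the protease that removes it. UBE2L6 (ENSG00000156587, chromosome 11, 57551656 to 57568284, minus strand) was at 1.13, 0.775 and 0.834 FPKM in Vector and at 4.20, 3.93 and 4.17 FPKM in OE-MMP28, with 23 to 38 and 137 to 154 reads. It was 4.49-fold higher (log2 fold change 2.17, SE 0.26, adjusted p = 6.00e-06), and 93 other genes rose by at least as much. Nearby genes were higher as well: TIMM10 had a log2 fold change of 1.20 (adjusted p = 0.000214) and SSRP1 of 0.50 (adjusted p = 0.0163, but 0.0525 to 0.0913 without Vector replicate 2, Vector replicate 3 or OE-MMP28 replicate 2, and 0.531 with the local median as an offset), while CLP1 was at 0.47 (adjusted p = 0.103), ZDHHC5 at 0.15 (adjusted p = 0.513) and the median within 5 Mb was 0.34. HERC5 (ENSG00000138646, chromosome 4, 88457117 to 88506163, plus strand) went the other way, from 2.69, 2.44 and 2.61 FPKM to 1.59, 1.26 and 1.17 FPKM (log2 fold change -0.93, SE 0.21, adjusted p = 0.00282). ISG15 itself was at 39.1, 39.6 and 30.4 FPKM in Vector and 22.1, 24.5 and 33.9 FPKM in OE-MMP28, with overlapping groups (log2 fold change -0.42, 95% confidence interval -0.81 to -0.03, adjusted p = 0.108, or 0.0314 without OE-MMP28 replicate 3). USP18 was at 0.45 (adjusted p = 0.164), and 18.3% of its 75-base stretches also occur in another gene. HERC6, the neighbour of HERC5, was at 0.24 (adjusted p = 0.407).

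Of the 4 IFIT genes, which encode proteins that bind foreign RNA ends and block translation, 3 fell. IFIT2 (ENSG00000119922, chromosome 10, 89283694 to 89309276, plus strand) was at 9.36, 8.06 and 7.16 FPKM in Vector and at 3.32, 3.43 and 3.88 FPKM in OE-MMP28 (log2 fold change -1.20, SE 0.17, adjusted p = 6.33e-05). IFIT1 went from 5.44 ± 0.894 to 3.00 ± 0.252 FPKM (log2 fold change -0.85, adjusted p = 0.00214) and IFIT3 from 15.2 ± 3.45 to 9.07 ± 0.531 FPKM (log2 fold change -0.73, adjusted p = 0.00574), SD with n = 3 each. No OE-MMP28 library of these 3 genes reached the lowest Vector library. IFIT5 was at 2.81 ± 0.673 and 2.18 ± 0.707 FPKM (log2 fold change -0.35, adjusted p = 0.310). The 4 genes lie together on chromosome 10 between 89283694 and 89421001, where the median of other tested genes within 5 Mb was -0.45. When this median was used as an offset in the fit, IFIT2 had a log2 fold change of -0.75 (adjusted p = 0.00598), IFIT1 of -0.40 (adjusted p = 0.144) and IFIT3 of -0.28 (adjusted p = 0.312).

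RSAD2 fell as well, in a region whose median was also below 0. RSAD2 (ENSG00000134321, chromosome 2, 6865806 to 6898239, plus strand) encodes viperin, an enzyme that makes a chain-terminating nucleotide. It was low, with 65, 46 and 34 reads in Vector (0.879, 0.704 and 0.477 FPKM) and 13, 21 and 27 in OE-MMP28 (0.170, 0.274 and 0.332 FPKM). The groups did not overlap (log2 fold change -1.39, SE 0.36, adjusted p = 0.00829), the local median was -0.42, and with it as an offset the value was -0.97 (adjusted p = 0.0723). CMPK2, its neighbour and a mitochondrial nucleotide kinase, had a log2 fold change of -0.26 (adjusted p = 0.596).

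The OAS genes encode enzymes that make 2′-5′-linked oligoadenylates on double-stranded RNA, which activate RNase L; OASL is a relative without that activity. OAS1 (ENSG00000089127, chromosome 12, 112906777 to 112933222, plus strand) was the most abundant member in Vector, at 52.4, 58.3 and 60.0 FPKM, and was at 30.6, 31.3 and 33.8 FPKM in OE-MMP28 (log2 fold change -0.82, SE 0.14, adjusted p = 0.000381). In OE-MMP28 it was 2nd, behind IFITM3. OASL (ENSG00000135114, chromosome 12, 121019111 to 121039242, minus strand), at 20.4, 29.8 and 15.5 FPKM in Vector, was at 10.7, 11.3 and 13.1 FPKM in OE-MMP28 (log2 fold change -0.89, SE 0.20, adjusted p = 0.00287). Neither gene had overlapping groups. OAS3 and OAS2, the next genes along from OAS1, had values of the other sign. OAS3 was at 11.8, 11.0 and 10.8 FPKM in Vector and 15.7, 15.9 and 12.7 FPKM in OE-MMP28 (log2 fold change 0.41, adjusted p = 0.0501, or 0.0298 without OE-MMP28 replicate 3), and OAS2 had a log2 fold change of 0.17 (adjusted p = 0.609). The median of other tested genes within 5 Mb of OAS1 was 0.26, opposite in sign to the value of OAS1.

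Within each library the balance between related members differed by group. The FPKM of OAS3 was 0.226, 0.188 and 0.180 of that of OAS1 in the Vector libraries and 0.513, 0.508 and 0.376 of it in OE-MMP28. GBP1 was at 0.184, 0.140 and 0.112 of GBP2 in Vector and at 0.421, 0.362 and 0.409 in OE-MMP28. IFITM2 was at 0.644, 0.716 and 0.484 of IFITM1 and then at 1.15, 1.60 and 2.37. The groups did not overlap in these or the other 3 of 6 ratios compared, and the mean log2 ratio differed by 0.98 (OAS2 to OAS1) to 3.14 (UBE2L6 to HERC5). The pairs were chosen after the values of the single genes were seen, so these ratios are a description. The exact two-sided permutation test gave p = 0.1 for each pair, the smallest it can give with 3 against 3.

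**Figure D3:**
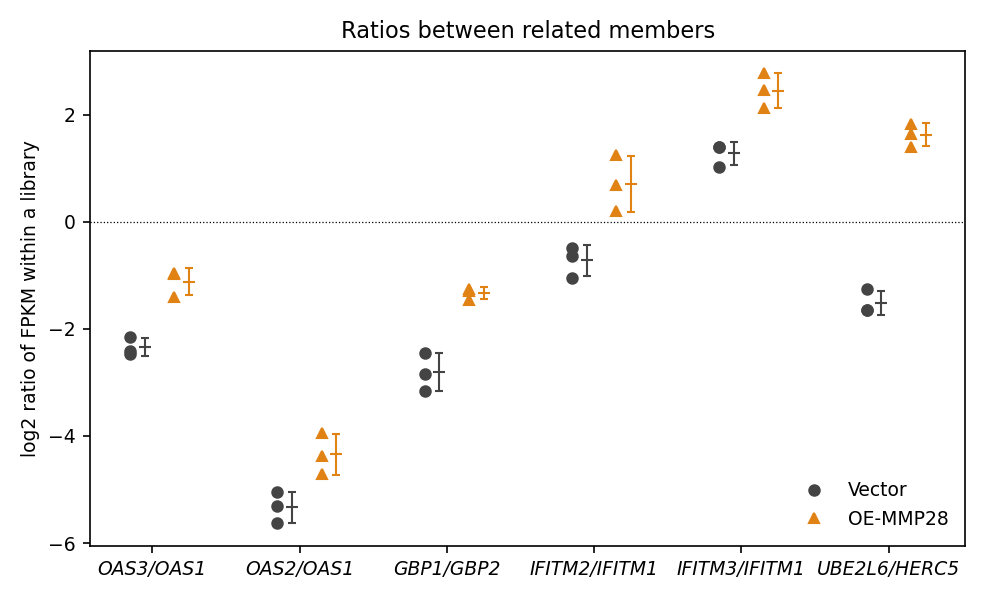
Log2 of the ratio of 2 members' FPKM within a library (vertical axis) for 6 pairs, with 1 point per library and the mean ± SD beside the points. The OE-MMP28 points lie above the Vector points in each pair, for OAS3 to OAS1 at ratios of 0.376 to 0.513 against 0.180 to 0.226.

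Guanylate-binding proteins, large GTPases that attack vacuoles of intracellular microbes, moved in opposite directions. GBP1 (ENSG00000117228, chromosome 1, 89052319 to 89065360, minus strand) rose from 1.24, 1.73 and 1.14 FPKM to 2.85, 2.16 and 2.49 FPKM (log2 fold change 0.88, SE 0.22, adjusted p = 0.00641). GBP2 (ENSG00000162645, chromosome 1, 89106132 to 89150456, minus strand) was at 6.77, 12.4 and 10.2 FPKM in Vector and at 6.77, 5.97 and 6.09 FPKM in OE-MMP28 (log2 fold change -0.63, SE 0.19, adjusted p = 0.0193). The lowest Vector library of GBP2 met the highest OE-MMP28 library, and its call held in 11 of 17 alternative analyses. Its adjusted p was 0.105 without Vector replicate 2, 0.0607 without Vector replicate 3, 0.0901 without OE-MMP28 replicate 2 and 0.0675 without OE-MMP28 replicate 3. The exons of GBP2 overlap those of GBP7 on the same strand over 9.89% of their bases. Members that lie within 1 Mb of each other form 11 groups with 28 members in all, and the pair of GBP genes was the 1 group with a call in each direction. MX1, the antiviral GTPase of this class, was at 0.296 ± 0.011 and 0.378 ± 0.043 FPKM (SD, n = 3 each; log2 fold change 0.36, adjusted p = 0.389).

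**Figure D4:**
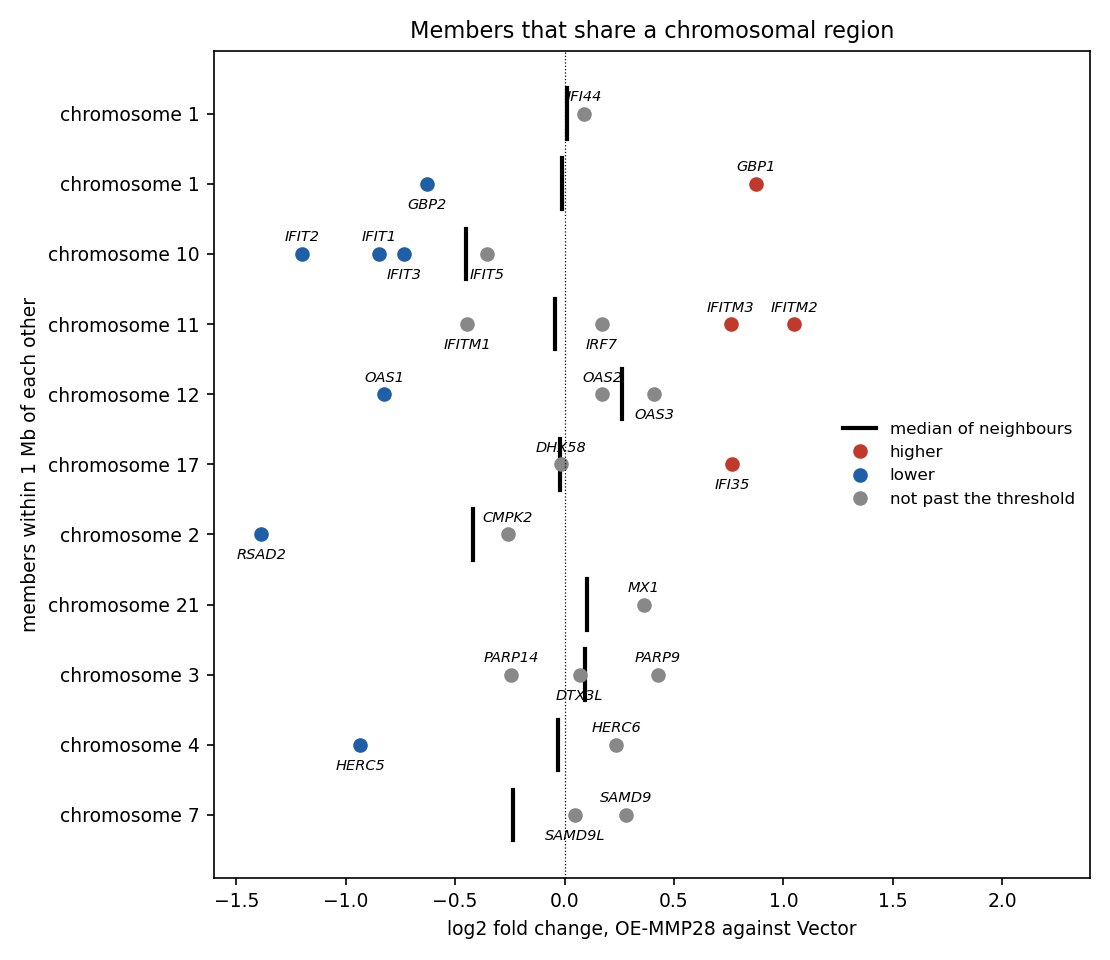
Log2 fold change (horizontal axis) of the tested members in 11 chromosomal groups whose members lie within 1 Mb of each other, with a black bar at the median of the other tested genes within 5 Mb. The IFIT and RSAD2 regions have medians of -0.45 and -0.42, and OAS1 at -0.82 stands on the other side of 0 from its local median of 0.26.

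Among the sensors and the transcription factors DDX58 and STAT2 fell, and the other 6 did not pass the threshold. DDX58 (ENSG00000107201, chromosome 9, 32455705 to 32526324, minus strand) encodes RIG-I, the sensor of RNA with a 5′ triphosphate, and fell from 5.95, 6.70 and 6.19 FPKM to 5.35, 4.01 and 3.85 FPKM (log2 fold change -0.50, SE 0.17, adjusted p = 0.0418). Its call held in 10 of 17 alternative analyses, and the adjusted p was 0.101 without Vector replicate 2, 0.109 without Vector replicate 3, 0.174 without OE-MMP28 replicate 2 and 0.138 without OE-MMP28 replicate 3. IFIH1, or MDA5, had a log2 fold change of 0.11 (adjusted p = 0.743), DHX58, or LGP2, of -0.01 (adjusted p = 0.974), and IFI16, a DNA sensor, of 0.26 (adjusted p = 0.360). STAT2 (ENSG00000170581, chromosome 12, 56341597 to 56360155, minus strand), a subunit of ISGF3, went from 7.99, 9.74 and 8.64 FPKM to 5.94, 5.83 and 5.97 FPKM (log2 fold change -0.56, SE 0.15, adjusted p = 0.0127). Without OE-MMP28 replicate 2 its adjusted p was 0.0661. IRF9, the other ISGF3 subunit on the list, was at -0.07 (adjusted p = 0.898, or -0.67 with adjusted p = 0.142 when its local median of 0.60 was an offset), IRF7 at 0.17 (adjusted p = 0.598) and IRF1 at 0.06 (adjusted p = 0.854). The exons of IRF9 overlap another gene on the same strand over 48.4% of their bases.

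None of the 5 tested members of the PARP and TRIM ubiquitin system passed the threshold, in edgeR, DESeq2 or limma, and 1, PARP9, had an unadjusted p under 0.05 in edgeR. PARP9, the partner of the ligase DTX3L, had a log2 fold change of 0.43 (adjusted p = 0.0599), DTX3L of 0.07 and PARP14 of -0.24 (adjusted p = 0.254). TRIM21, a cytosolic antibody receptor, was at 0.29 (adjusted p = 0.247), and TRIM25, a ubiquitin ligase, at -0.14. Of 7 other tested members 1 rose: IFI35 (ENSG00000068079, chromosome 17, 43006725 to 43014456, plus strand) went from 13.1, 13.8 and 10.1 FPKM to 16.2, 22.3 and 23.8 FPKM (log2 fold change 0.77, SE 0.19, adjusted p = 0.00533). The remaining 6, XAF1, SAMD9, SP110, IFI44, SAMD9L and EPSTI1, lay between -0.05 and 0.54 on the log2 scale. Over all 27 members not past the threshold the log2 fold change ran from -0.44 to 0.61 and the adjusted p from 0.0501 to 0.974. For 25 of them the 95% confidence interval stayed between -1 and 1, and for IFI27 and XAF1 it reached above 1.

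Another 3 members had too few reads to test. MX2 had 8, 4 and 9 reads in Vector and 7, 6 and 15 in OE-MMP28, and TRIM22 had 8, 2 and 3 against 10, 2 and 11. IFI44L, a gene often used as a marker of interferon exposure, had 0, 0 and 3 reads in Vector and 6, 5 and 5 in OE-MMP28. The groups overlapped for MX2 and TRIM22 and not for IFI44L. The FPKM of all 47 members summed to 399, 438 and 384 in Vector and 355, 368 and 407 in OE-MMP28, with overlapping groups.

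Larger changes were called for 3 members in each direction, too few to read their shares as a result about the list. A fall with a log2 fold change below -1 was called for 3 members (6.82% of 44; BST2, RSAD2 and IFIT2) and for 4.32% of all genes tested. A rise above 1 was called for 3 members (6.82%; UBE2L6, IFI6 and IFITM2) and for 3.06% of all genes. In 13 members (29.5%) every OE-MMP28 library was below every Vector library and in 11 (25.0%) above, beside 18.6% and 19.5% of all genes. The counts of larger changes depend on the setting. IFITM2 was at 0.97 without Vector replicate 1 and at 0.74 without OE-MMP28 replicate 3. With the local median as an offset IFIT2 was at -0.75 and RSAD2 at -0.97 (adjusted p = 0.0723, edgeR). These shares describe the list and were not tested against other lists.

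A list of 53 other genes of the interferon pathway comprises ligands, receptors, kinases, regulators and further interferon-stimulated genes. Of the 42 tested, 2 rose and 2 fell (4.76% each, beside 11.7% higher and 11.6% lower of all genes tested) and 38 did not pass the threshold. Their median log2 fold change was -0.09. HELZ2, a helicase, fell (log2 fold change -0.84, SE 0.18, adjusted p = 0.00238), as did LY6E, a lipid-anchored surface protein (log2 fold change -0.78, SE 0.17, adjusted p = 0.00265), in a region whose median was -0.42. With that median as an offset LY6E was at -0.36 (adjusted p = 0.165). PLSCR1, a phospholipid scramblase, rose (log2 fold change 0.79, SE 0.15, adjusted p = 0.00107) where the local median was 0.60, and with that offset it was at 0.19 (adjusted p = 0.441).

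Of 10 interferon ligand genes on that list, 7 (IFNB1, IFNW1, IFNA2, IFNK, IFNG, IFNL2 and IFNL3) had no read in any library, which allows up to 0.220 CPM in the shallowest. IFNA1 had at most 4 reads and IFNL1 at most 2. IFNE, an epithelial type I interferon that can be expressed without infection, had 42, 42 and 62 reads in Vector and 95, 67 and 134 in OE-MMP28. IFNE was higher in each OE-MMP28 library (log2 fold change 0.87, SE 0.28, adjusted p = 0.0318, edgeR), but the groups nearly met. The highest Vector library was at 2.85 FPKM and the lowest OE-MMP28 library at 2.87 FPKM. The call held in 11 of 17 alternative analyses. The adjusted p of IFNE was 0.0708 without Vector replicate 1, 0.0585 without Vector replicate 2, 0.0703 without OE-MMP28 replicate 1 and 0.188 without OE-MMP28 replicate 3.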

How the data were processed

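RNA of 6 AsPC-1 libraries (3 Vector, 3 OE-MMP28) was prepared with a NEBNext Ultra kit and sequenced. The deposited table holds a read count per gene and the FPKM values that the authors derived per gene length and library depth, with the authors' own fold changes and p-values, which were not used. The submitters' processing notes name HISAT2 2.0.5 and featureCounts 1.5.0-p3. Gene identifiers and positions were the same as in GENCODE 29 (GRCh38). All count and FPKM columns were matched to a sample by name.

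Counts were tested with edgeR 4.0.16 in R 4.3.3 (filterByExpr at 10 reads per library and 15 in total, TMM, quasi-likelihood test, Benjamini-Hochberg adjustment over all 15319 genes tested, threshold 0.05). This test was used because the table holds raw counts; limma, which the study names, was an alternative. FPKM values describe levels, and fold changes come from the counts unless FPKM is named. Standard errors were derived from the F statistic. Alternatives were limma 3.58.1, with voom and on log2(FPKM + 1) and log2(FPKM + 0.1), DESeq2 1.42.0, other scalings and filters, a replicate block, an offset for the local median over tested non-member genes within 5 Mb, and leaving out each library. The permutation test of BST2 used SciPy 1.17.1. The scripts were tested on simulated data.

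The members and lists were chosen with earlier results of these data known. Members past the threshold are named with their values, those not past it within their role group, those under the filter by their counts, and other pathway genes where they passed the threshold, together with the ligands. An item withheld from the text is not reported here. The ratios and the neighbouring genes were chosen after the values were seen.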

Additional observations from a re-analysis of the deposited data

How the results depend on the processing

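Across 17 alternatives, 6 to 7 members were higher and 8 to 12 lower. Of 17 called members, 11 kept their call in every alternative that gave a value, and none changed direction. The calls of IFIT1, IFIT3 and RSAD2 were lost with the local offset, those of DDX58 in 7 and GBP2 in 6 alternatives and that of STAT2 in 1. With the replicate block 6 members were higher and 11 lower, as without it, and the same-numbered libraries did not deviate together (r = 0.02, 0.01 and -0.09), so the numbers were not taken as pairs. Leaving out a library gave a median log2 fold change of -0.033 to 0.19 for the members and 1 to 2 pathway genes higher and 2 to 4 lower; 1 was higher without OE-MMP28 replicate 1 or 3, and 4 were lower without Vector replicate 2. Upper-quartile scaling gave a median of 0.016. The cause was not tested. ISG15 (adjusted p = 0.0314, edgeR) and OAS3 (0.0298) passed the threshold without OE-MMP28 replicate 3, IFITM1 (0.0374) without Vector replicate 1, and OAS3 in DESeq2 (0.0374).

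Members that did not pass the threshold changed sign in 28 of 448 values. With the local offset these were CMPK2 at 0.16, DHX58 at 0.0047, DTX3L at -0.026, IFIT5 at 0.10, IRF1 at -0.0068 and OAS2 at -0.090, and with upper-quartile scaling SAMD9L at -0.0022. Leaving out a library in turn gave -0.21 to 0.11 for DHX58, -0.050 to 0.36 for IFI44, -0.055 to 0.18 for IRF1, -0.078 to 0.28 for SAMD9L, -0.25 to 0.057 for IRF9, -0.22 to 0.23 for EPSTI1, -0.022 to 0.50 for SP110, -0.018 to 0.30 for IFIH1, -0.021 to 0.30 for OAS2 and -0.095 to 0.19 for DTX3L. The standard errors of RSAD2, IFI6 and UBE2L6 (0.36, 0.29 and 0.26) were the widest among the called members.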
